A study of Schizosaccharomyces pombe with 12 samples.

Results

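Aminoacyl-tRNA synthetases were followed through the peroxide response of fission yeast (Schizosaccharomyces pombe). Members were the genes whose product in the ASM294v3 reference annotation names a tRNA ligase, allowing for an amino acid in parentheses between both words, as in asparagine--tRNA (Asn) ligase. This gave 35 of the 12683 genes listed, against 3 genes (gus1, wrs1 and trl1) with nothing between the words. They are 34 synthetase genes, which cover 20 amino acids, and trl1, the tRNA splicing ligase, which joins the pieces of a tRNA after intron removal and charges none. The 6 groups, with 2 libraries each, were ubp16 treated, ubp16 untreated, ubp8 treated, ubp8 untreated, WT (972) treated and WT (972) untreated. Treated cells received 1 mM H2O2 for 30 min, the series describes ubp8 and ubp16 as deletion strains, and all strains grew in YE5S medium before polyA RNA was sequenced. Nothing in the labels tells whether both libraries of a group are separate cultures, and p-values therefore measure only the spread between these libraries. Counts are relative to the whole library, so less of a transcript per cell and fewer cells that hold it cannot be told apart.

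A synthetase attaches its amino acid to the matching tRNA, and its accuracy sets the accuracy of the genetic code. Mitochondria translate their own few messages, so for most amino acids the nucleus encodes a further enzyme that is imported into the organelle, while for others a single gene supplies both compartments. Ubp8, the deubiquitinase of the SAGA coactivator, and Ubp16 are ubiquitin-specific proteases.

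The product names give no compartment. For 13 amino acids with 2 genes, the protein with the more positive net charge over its first 30 residues was taken as mitochondrial, since import signals are rich in basic residues. All 7 genes whose symbols are shared with mitochondrial enzymes of Saccharomyces cerevisiae (mse1, msk1, msm1, msw1, ism1, dia4 and slm5) fell in that class, and the mitochondrial protein was the shorter in 10 of the 13 pairs. Identity over aligned residues within a pair ran from 24% for Leu (lrs1 and SPAC4G8.09) to 44.7% for Thr (trs1 and SPAC24C9.09). The charge rule did not apply to qrs1 (Gln) or to the Phe subunits frs1 and frs2, which were placed with the cytosolic genes by hand, making 16 cytosolic and 13 mitochondrial genes. Yeast mitochondria make charged Gln-tRNA by amidation of Glu-tRNA and, as background, need no Gln enzyme, so qrs1 was not put with the single genes although it is the only gene for its amino acid. Ala (ala1), Arg (mrs1), Cys (SPAC29E6.06c), Gly (grs1) and His (hrs1) had 1 gene each. The product of msf1 (Phe) is worded as a synthetase, so msf1 lies outside the rule and is not counted.

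Promoter windows of 250 bases before the annotated transcript start were searched on both strands for 4 motifs, none of which contains another. TGACGT, the site of Atf1, the stress factor downstream of the kinase Sty1, was in 0 of 35 windows, against 5.52% of 5112 windows of coding genes. TGACTC, the site of Gcn4, the amino acid starvation factor of S. cerevisiae, was in 1 of 16 cytosolic windows (trs1) and 1 of 13 mitochondrial windows (SPCC576.06c), against 5.63% of coding genes. TTACTAA, a site type of the oxidant-sensing factor Pap1, was in frs1, yrs1, msm1 and SPBC24C6.03, against 10.7% of coding genes. CAGTCACA, the HomolD box of ribosomal protein genes, was in lrs1, against 2.62% of coding genes. The counts are too small to set these shares apart from those of all coding genes. The lrs1 and trs1 windows hold a motif and no annotated exon of another gene, and are shown for that reason, 5′ to 3′ on the gene's strand, from the ASM294v3 assembly of RefSeq, with the motif or its reverse complement in capitals. The lrs1 window is chrI:5148583-5148832 on the plus strand, and the trs1 window is chrII:3282494-3282743 on the minus strand.
lrs1: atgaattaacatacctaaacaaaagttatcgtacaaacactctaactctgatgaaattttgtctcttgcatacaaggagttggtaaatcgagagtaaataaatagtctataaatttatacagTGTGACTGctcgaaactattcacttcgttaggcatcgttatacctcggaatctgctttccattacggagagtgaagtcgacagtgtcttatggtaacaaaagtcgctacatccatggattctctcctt
trs1: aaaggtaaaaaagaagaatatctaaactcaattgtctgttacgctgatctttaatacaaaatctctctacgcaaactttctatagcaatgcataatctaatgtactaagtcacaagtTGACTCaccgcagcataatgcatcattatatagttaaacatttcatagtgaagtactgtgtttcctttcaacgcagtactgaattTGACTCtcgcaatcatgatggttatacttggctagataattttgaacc

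Libraries held 9904056 to 14054746 counts, and 3 counts came to at most 0.316 CPM (counts scaled to a common library size after TMM normalization, with factors of 0.851 to 1.25). Pearson correlations between libraries of a group, across genes that are not independent replicates, were 0.9944 to 0.9958. Of 12683 genes, 8166 passed the filter on low counts, all 35 members among them, and no member had under 115 counts in any library. The ubp8 transcript stood at -1.93 ± 0.14 (log2, SE) in untreated ubp8 cells against WT, and ubp16 at -1.10 ± 0.15 in untreated ubp16 cells against WT. Neither was at 0, and a total per gene leaves the position of its reads unknown. A call means an adjusted p under 0.05 (edgeR's quasi-likelihood test, Benjamini-Hochberg over all tested genes). Fold changes are log2 values ± SE, with 2 libraries in each group and the spread estimated over all 12 libraries. Same-strand exons of other genes overlap 5 members: msw1 by 7.22%, dar2 by 5.01%, SPAC4G8.09 by 3.38%, yrs1 by 2.33% and krs1 by 0.341%. Opposite-strand exons overlap 34 of the 35 members. The exons of krs1 and hrs1 lie wholly opposite SPNCRNA.5521 and dcd1. These members averaged 475 and 352 CPM, and their partners 5.16 and 81.2 CPM. Levels were closer for slm5 (24.1 CPM) and ubc16 (30.8 CPM), which covers 75.4% of its exons.

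Cytosolic synthetase genes were expressed well above the mitochondrial ones. The median level per length was 25.4 CPM per kb of exon for the mitochondrial genes, 197 for the cytosolic genes, 201 for the single genes and 43.5 over all tested coding genes. On this scale the cytosolic genes ran from 49.2 CPM per kb in qrs1 to 282 in srs1 (Ser), the single genes from 106 in SPAC29E6.06c to 247 in grs1, and the mitochondrial genes from 5.06 in msw1 (Trp) to 54.0 in msm1 (Met). The annotated exons of msw1 (6316 bases) and dar2 (4270 bases) are long for proteins of 361 and 611 residues, so that UTR length enters their level per length. Per kb, srs1 had 240 ± 0.585 CPM in ubp16 treated, 315 ± 27.9 in ubp16 untreated, 246 ± 7.99 in ubp8 treated, 244 ± 4.19 in ubp8 untreated, 317 ± 5.07 in WT treated and 331 ± 16.2 in WT untreated cells (SD, n = 2). Its 3 lower groups differed from each other by less than their largest SD, and so did its 3 higher groups. Per kb, msw1 had 4.47 ± 0.477 CPM in ubp16 treated, 7.25 ± 0.687 in ubp16 untreated, 3.30 ± 0.571 in ubp8 treated, 5.94 ± 0.101 in ubp8 untreated, 3.12 ± 0.0852 in WT treated and 6.30 ± 0.0958 in WT untreated cells. In each strain the treated mean of msw1 lay below the untreated one. Among the other extremes of a class, qrs1 spanned 38.8 to 58.5 CPM per kb over the group means, msm1 32.0 to 90.5, grs1 205 to 296 and SPAC29E6.06c 84.8 to 129.

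The ratio of cytosolic to mitochondrial synthetase counts was lower after peroxide in ubp16 and higher in WT. The gap in ubp16 was much smaller without 2 mitochondrial genes chosen because they rose. Summed counts on the 16 cytosolic genes over those on the 13 mitochondrial genes, a ratio that no library scaling touches, were 5.41 and 5.61 in ubp16 treated libraries, against 7.14 and 7.26 in ubp16 untreated libraries. In ubp8 the ratio was 8.01 and 8.07 in treated libraries, against 7.59 and 6.91 in untreated libraries. In WT it was 12.7 and 14.0 in treated libraries, against 9.95 and 10.5 in untreated libraries. The ratio was lower after peroxide in ubp16 and higher in ubp8 and WT, without overlap between treated and untreated libraries of a strain, and every mutant library lay below every WT library. An exact two-sided permutation test of 2 against 2 libraries cannot go below p = 0.333, so none was run. Without prs1, the member with the most counts, the ratio was 5.07 and 5.24 in ubp16 treated, 6.33 and 6.42 in ubp16 untreated, 7.53 and 7.58 in ubp8 treated, 6.86 and 6.26 in ubp8 untreated, 11.7 and 12.8 in WT treated and 8.86 and 9.25 in WT untreated libraries, in the same order. Among mitochondrial genes msm1 and SPAC24C9.09 rose in each strain, and they were left out as well, a choice made after their values were seen. The ratio was then 7.92 and 8.15 in ubp16 treated, 8.57 and 8.86 in ubp16 untreated, 11.3 and 11.3 in ubp8 treated, 8.96 and 8.12 in ubp8 untreated, 18.2 and 20.2 in WT treated and 11.8 and 12.4 in WT untreated libraries. The direction in each strain was as before, with a much smaller gap in ubp16 and larger ones in ubp8 and WT. Leaving out genes chosen for rising lifts the treated ratio more than the untreated one, so the direction of these shifts followed from the choice. Without qrs1 it was 5.26 and 5.44 in ubp16 treated, against 6.98 and 7.10 in ubp16 untreated libraries.

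**Figure D1:**
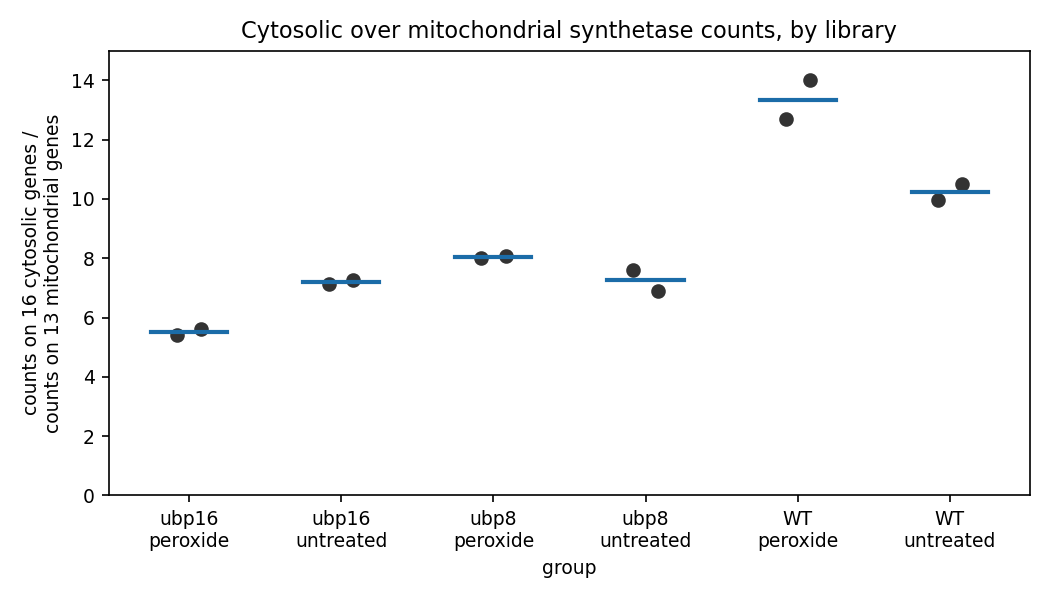
Counts on 16 cytosolic synthetase genes over counts on 13 mitochondrial ones (y axis) for each library (points) by group (x axis), with blue lines at the mean of 2 libraries. WT treated libraries are highest at 12.7 and 14.0, and ubp16 treated libraries lowest at 5.41 and 5.61.

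Peroxide in WT lowered most mitochondrial synthetase transcripts, while cytosolic ones were called in either direction at shares near those of all genes. Of 13 mitochondrial genes 2 rose and 9 fell, with a median of -0.73, while of 16 cytosolic genes 4 rose and 3 fell, with a median of -0.10. Over all tested genes 26.2% were called higher and 27.0% lower, with a median of -0.04, and among coding genes 29.7% and 36.5%. The mitochondrial class is also the less abundant class: of coding genes at or below the median level per length, 19.4% were called higher and 46.9% lower (median -0.29), against 40.1% and 26.2% of those above it (median 0.09). The part of expression level in the difference between the classes was not tested.

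The largest fall in WT was in dar2 (SPCC736.06, chrIII:322498-326767 in ASM294v3), the mitochondrial Asp enzyme, which had 13.0 and 11.4 CPM in WT treated libraries, against 41.2 and 42.6 CPM in WT untreated libraries. This is a change of -1.78 ± 0.13 (adjusted p = 6.28e-09). SPCC576.06c (chrIII:2092017-2093637), the mitochondrial Tyr enzyme and the only member with no exon opposite it, had 18.2 and 15.7 CPM in WT treated libraries, against 49.8 and 47.2 CPM in WT untreated libraries, a change of -1.52 ± 0.12 (adjusted p = 2.89e-08). In neither gene did treated and untreated libraries overlap. The mitochondrial Lys enzyme msk1 (-1.13 ± 0.09) and Ile enzyme ism1 (-1.08 ± 0.09) also fell, as did msw1, dia4 (Ser), SPAC4G8.09, mse1 (Glu) and vrs2 (Val) by smaller amounts. The 2 that rose were msm1, by 0.72 ± 0.10, and SPAC24C9.09 (Thr), by 0.34 ± 0.09.

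Among cytosolic enzymes irs1 (Ile, 0.53 ± 0.10), drs1 (Asp, 0.44 ± 0.09), nrs1 (Asn, 0.36 ± 0.09) and trs1 (Thr, 0.25 ± 0.09) rose in WT. The Val enzyme vrs1 (-0.77 ± 0.10), the Pro enzyme prs1 (-0.54 ± 0.10) and qrs1 (-0.50 ± 0.08) fell. Of the single genes only mrs1 was called (-0.28 ± 0.10), and trl1 stood at -0.18, not called. Of the calls in WT, 9 of 11 mitochondrial and 6 of 7 cytosolic ones held with any single library left out. The trs1 call was lost without each of the 4 WT libraries (0.21 to 0.29), mse1 without replicate 1 of untreated (-0.29) or replicate 2 of treated WT (-0.31), vrs2 without the same libraries (-0.23 and -0.19), and mrs1 without replicate 1 of untreated (-0.24) or either replicate of treated WT (-0.24 and -0.29). With library totals as scaling, which moved the median of all genes to -0.23, 2 cytosolic genes were called higher and 10 lower, and 1 and 10 mitochondrial ones.

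In ubp8 most mitochondrial synthetase transcripts fell as well. Of its mitochondrial genes 3 rose and 9 fell after peroxide, with a median of -0.40, and of its cytosolic genes 3 rose and 2 fell, with a median of 0.03. Of all tested genes 28.0% were called higher and 25.8% lower (median -0.06), and among coding genes at or below the median level 27.0% and 33.4%. The largest falls were in msw1 (-0.84 ± 0.13), dar2 (-0.71 ± 0.11), SPCC576.06c (-0.55 ± 0.11) and mse1 (-0.50 ± 0.12). The largest rises were in msm1 (1.00 ± 0.10), SPAC24C9.09 (0.66 ± 0.08) and slm5 (Asn, 0.51 ± 0.15). The level of dar2 was 23.9 and 28.3 CPM in ubp8 treated libraries, against 42.4 and 42.8 CPM in ubp8 untreated libraries, and that of SPCC576.06c was 41.6 and 38.8 CPM against 62.2 and 55.4 CPM in the same groups. Treated and untreated libraries of ubp8 did not overlap in either gene.

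Cytosolic drs1 (0.42 ± 0.09), irs1 (0.41 ± 0.10) and nrs1 (0.36 ± 0.09) rose in ubp8, and prs1 (-0.62 ± 0.10) and vrs1 (-0.37 ± 0.09) fell. Of the single genes, hrs1 rose (0.25 ± 0.09) and mrs1 fell (-0.37 ± 0.10), but neither held: hrs1 was lost without replicate 2 of untreated (0.21) or either replicate of treated ubp8 (0.18 and 0.15), and mrs1 without replicate 1 of untreated ubp8 (-0.25). Calls also ended for slm5 without replicate 2 of untreated (0.45) or replicate 1 of treated ubp8 (0.33), for irs1 without the same libraries (0.27 and 0.32), for nrs1 without replicate 1 of treated ubp8 (0.24), and for vrs1 without replicate 1 of untreated ubp8 (-0.28). Those of dia4 (-0.24) and vrs2 (-0.29) ended without replicate 2 of untreated ubp8. With library totals, which moved the median of all genes to -0.38, 0 cytosolic genes were called higher and 12 lower, against 2 and 10 mitochondrial ones.

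In ubp16 more genes fell than rose in both classes. Of 16 cytosolic genes 1 rose and 10 fell, with a median of -0.39, and of 13 mitochondrial genes 2 rose and 7 fell, with a median of -0.31. All 5 single genes and trl1 (-0.63 ± 0.09) fell. Of all tested genes 25.2% were called higher and 25.2% lower, with a median of -0.05, and among coding genes 31.1% and 32.7%. Of coding genes at or below the median level per length, 25.0% were higher and 31.9% lower (median -0.07). Above that level the shares were 37.1% and 33.4% (median 0.04). The largest fall was in prs1, which had 319 and 335 CPM in ubp16 treated libraries, against 718 and 779 CPM in ubp16 untreated libraries, a change of -1.19 ± 0.10 (adjusted p = 5.06e-08). In WT prs1 had 614 and 630 CPM in treated libraries, against 867 and 936 CPM in untreated libraries. So prs1 fell in both strains, without overlap, and reached its lowest level in ubp16 treated libraries.

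The Arg enzyme gene mrs1 (-0.92 ± 0.10), vrs1 (-0.70 ± 0.10), frs1 (-0.51 ± 0.10) and lrs1 (-0.46 ± 0.10) fell as well, while nrs1 was the only cytosolic gene that rose (0.25 ± 0.09). The nrs1 call was lost without replicate 1 of untreated (0.21) or either replicate of treated ubp16 (0.23 and 0.30). Among mitochondrial genes mse1 (-0.71 ± 0.12), msw1 (-0.70 ± 0.13), msk1 (-0.47 ± 0.09) and dia4 (-0.42 ± 0.13) fell most, and msm1 (0.88 ± 0.10) and SPAC24C9.09 (0.82 ± 0.08) rose. The level of SPCC576.06c was 63.6 and 67.0 CPM in ubp16 treated libraries, against 52.8 and 61.8 CPM in ubp16 untreated libraries (0.19, not called). That of dar2 was 39.4 and 41.8 CPM in ubp16 treated libraries, against 52.8 and 50.5 CPM in ubp16 untreated libraries (-0.35 ± 0.11). Of the calls in ubp16, 9 of 11 cytosolic, 5 of 9 mitochondrial and 2 of 5 single-gene ones held with any single library left out. The dar2 call was lost without replicate 1 of untreated (-0.32) or replicate 1 of treated ubp16 (-0.28), and that of dia4 without replicate 2 of untreated (-0.33) or replicate 2 of treated ubp16 (-0.36). Without single ubp16 libraries krs1 (-0.27 to -0.36), SPAC4G8.09 (-0.18 and -0.25), ism1 (-0.23), ala1 (-0.24 and -0.27), SPAC29E6.06c (-0.20) and hrs1 (-0.23 and -0.27) lost theirs. With library totals, which moved the median of all genes to -0.30, 15 cytosolic genes were called lower and 0 higher.

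**Figure D2:**
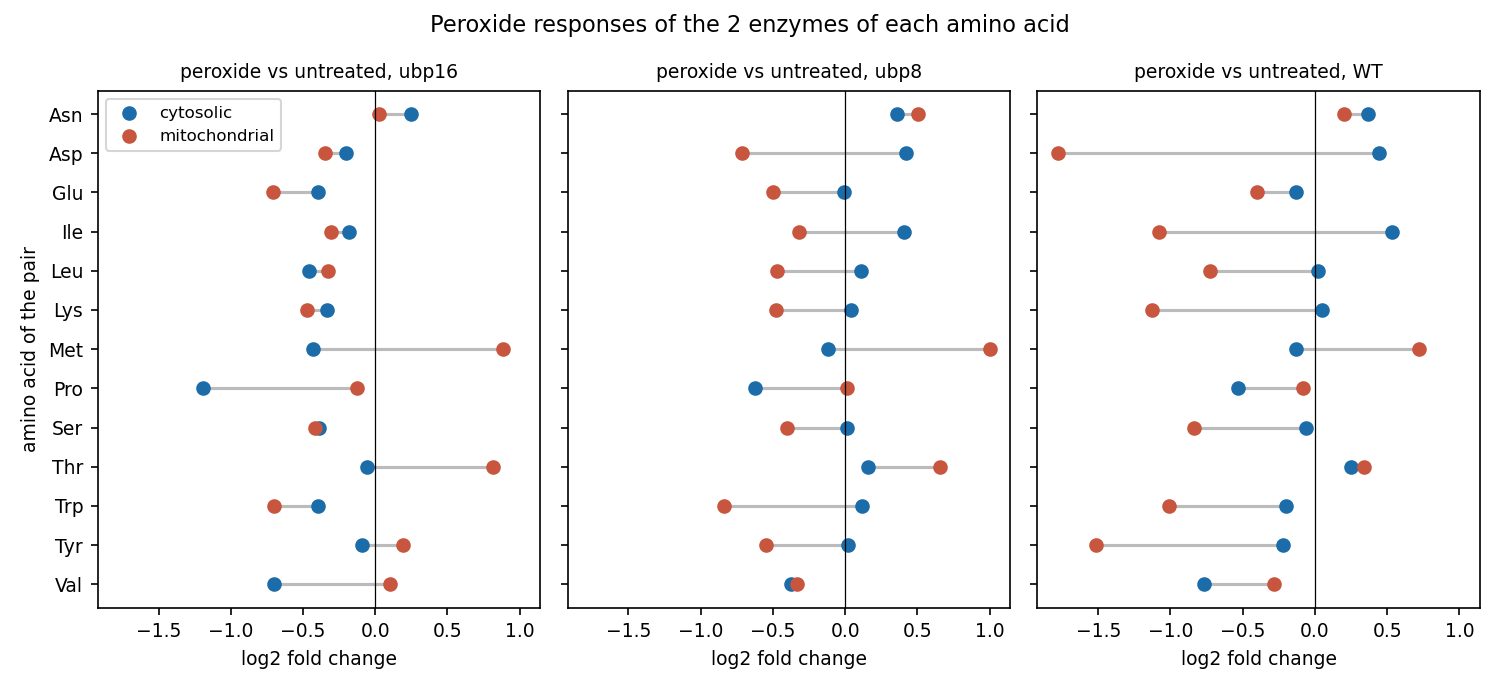
Peroxide responses (x axis, log2 fold change of treated over untreated) of the cytosolic (blue) and mitochondrial (red) enzyme of each amino acid (y axis) in ubp16, ubp8 and WT. In WT the mitochondrial point lies left of the cytosolic one in 9 of 13 pairs, with a gap of -2.23 for Asp.

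Set side by side within a pair, the mitochondrial change minus the cytosolic change had a median of -0.03 over 13 pairs in ubp16, -0.50 in ubp8 and -0.75 in WT. This difference is free of library scaling. It was below 0 in 7 pairs in ubp16, in 8 pairs in ubp8 and in 9 pairs in WT. The Asp pair differed by -0.15 in ubp16, -1.14 in ubp8 and -2.23 in WT, and the Ile pair by -0.13 in ubp16, -0.72 in ubp8 and -1.61 in WT. In both pairs the gap was widest in WT. The Met, Pro, Thr and Val pairs went the other way in each strain, though by only 0.04 for Val in ubp8 and 0.09 for Thr in WT. In the Met pair msm1 lay above its cytosolic partner rar1 by 1.31 in ubp16, 1.12 in ubp8 and 0.85 in WT. For msm1 the levels were 171 and 164 CPM in ubp16 treated libraries, against 83.6 and 98.8 CPM in ubp16 untreated libraries, and 105 and 98.2 CPM in WT treated libraries, against 60.2 and 62.9 CPM in WT untreated libraries. Treated libraries of msm1 lay above untreated ones in both strains.

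Before treatment, 3 of 35 members (8.57%) were called higher in ubp16 than in WT and 8 (22.9%) lower. Of 16 cytosolic genes 0 were called higher and 6 lower (median -0.25), and of 13 mitochondrial genes 3 higher and 0 lower (median 0.21), against 14.3% higher and 11.3% lower of all tested genes (median 0.01). Among coding genes at or below the median level per length, 20.3% were higher and 5.85% lower, and of those above it 17.9% and 20.8%. The share of mitochondrial genes called higher (23.1%) was thus near that of coding genes at or below the median level. The largest difference was in nrs1, with 271 and 286 CPM in ubp16 untreated libraries, against 513 and 503 CPM in WT untreated libraries (-0.87 ± 0.09, adjusted p = 4.22e-06). Its libraries did not overlap, and those of ubp16 lay well below. The other members of the cytosolic set with the largest differences were yrs1 (Tyr, -0.65 ± 0.10), krs1 (Lys, -0.49 ± 0.11) and wrs1 (Trp, -0.44 ± 0.09). The mitochondrial genes called higher were msm1 (0.56 ± 0.10), dia4 (0.35 ± 0.13) and SPBC24C6.03 (Pro, 0.33 ± 0.10), and outside the rule msf1 was higher as well (0.42 ± 0.09). The single gene mrs1 (-0.34 ± 0.10) and trl1 (-0.31 ± 0.09) were lower.

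Several of these untreated ubp16 calls were marginal. Mitochondrial genes called higher numbered 1 without either untreated WT library or untreated ubp16 replicate 2, since dia4 (0.26 to 0.39) and SPBC24C6.03 (0.21 to 0.37) were lost there, and 7 with library totals. The mrs1 call was lost without WT untreated replicate 1 (-0.31) or ubp16 untreated replicate 2 (-0.30), and that of trl1 without WT untreated replicate 1 or either ubp16 untreated library (-0.30 to -0.33). Of the 6 cytosolic calls 4 held, frs1 being lost without WT untreated replicate 2 (-0.21) or ubp16 untreated replicate 1 (-0.22), and rar1 without replicate 2 of either group (-0.33 each). Cytosolic genes called lower numbered 12 with coding genes alone or a minimum mean of 50 counts, 11 with DESeq2 and 9 with its size factors.

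Untreated ubp8 had less of nearly every cytosolic synthetase transcript than WT. Of 16 cytosolic genes 0 were called higher and 15 lower (median -0.42), all 5 single genes and trl1 were lower, and of 13 mitochondrial genes 1 was higher and 1 lower (median 0.02). Of all tested genes 15.1% were called higher and 23.8% lower (median -0.01). Among coding genes above the median level per length, however, 3.15% were higher and 53.7% lower (median -0.29), against 9.77% and 23.0% of those at or below it (median -0.09). The largest differences were in prs1 (-0.71 ± 0.10), krs1 (-0.67 ± 0.11), frs1 (-0.60 ± 0.10) and lrs1 (-0.51 ± 0.10), and irs1 was not called (-0.25). The level of prs1 was 590 and 513 CPM in ubp8 untreated libraries, against 867 and 936 CPM in WT untreated libraries, with no overlap. Among mitochondrial genes vrs2 was higher (0.28 ± 0.10) and msk1 lower (-0.27 ± 0.09), and each was lost without 3 of the 4 libraries. Of the 15 cytosolic calls 7 held with any library left out, 1 of the 5 single-gene calls did, and trl1 was lost without replicate 2 of either group (-0.32 and -0.33). The cytosolic count was 7 without replicate 2 of untreated WT. It was 4 with library totals, under which the median of all genes was 0.28, and 7 mitochondrial genes were then called higher.

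After peroxide ubp16 had less of most cytosolic and more of most mitochondrial transcripts than WT. In ubp16 treated cells against WT treated cells, 1 of 16 cytosolic genes was called higher and 14 lower (median -0.64), and 11 of 13 mitochondrial genes were higher and 0 lower (median 0.63). All 5 single genes (median -0.53) and trl1 (-0.77 ± 0.09) were lower. Of all tested genes 28.7% were called higher and 26.5% lower, with a median of -0.02. Among coding genes at or below the median level per length 50.4% were higher and 14.5% lower (median 0.33), and of those above it 24.9% and 40.7% (median -0.13). The counts of cytosolic and mitochondrial calls were within 1 of these under each alternative tried.

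SPCC576.06c had 63.6 and 67.0 CPM in ubp16 treated libraries, against 18.2 and 15.7 CPM in WT treated libraries, a difference of 1.95 ± 0.12 (adjusted p = 2.55e-09). For dar2 the levels were 39.4 and 41.8 CPM in ubp16 treated libraries, against 13.0 and 11.4 CPM in WT treated libraries, a difference of 1.74 ± 0.13 (adjusted p = 1.49e-08). Every ubp16 treated library lay above every WT treated library in both genes. The Ile enzyme ism1 (0.92 ± 0.10) and dia4 (0.77 ± 0.14) followed, and mse1 (-0.14) and slm5 (0.20) were not called. Calls were lost for msw1 without replicate 2 of treated ubp16 (0.41), and for SPBC24C6.03 without replicate 1 of treated ubp16 or either replicate of treated WT (0.23 to 0.31).

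Lower in ubp16 treated cells were nrs1 (-0.98 ± 0.09), prs1 (-0.93 ± 0.10), irs1 (-0.90 ± 0.10) and drs1 (-0.90 ± 0.10) among cytosolic genes, and mrs1 (-0.99 ± 0.10) among single genes. For irs1 the levels were 268 and 282 CPM in ubp16 treated libraries, against 511 and 520 CPM in WT treated libraries, and for drs1 360 and 347 CPM against 644 and 676 CPM in the same groups. Neither gene overlapped between the groups. The Gln enzyme gene qrs1, with 144 and 151 CPM in ubp16 treated libraries, against 95.4 and 100 CPM in WT treated libraries, placed by hand in the cytosolic class, was the only gene of that class called higher (0.59 ± 0.08, adjusted p = 1.31e-05). It stood at 143 and 147 CPM in ubp16 untreated libraries, against 137 and 139 CPM in WT untreated libraries. The trs1 call (-0.28) was lost without any single library of either group, and so was that of ala1 (-0.25).

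In ubp8 most cytosolic transcripts were likewise lower after peroxide, and some mitochondrial ones higher. In ubp8 treated cells against WT treated cells, 0 of 16 cytosolic genes were called higher and 12 lower (median -0.37), and 6 of 13 mitochondrial genes higher and 0 lower (median 0.27). Of all tested genes 16.6% were higher and 15.7% lower (median 0.04), among coding genes at or below the median level per length 28.1% and 8.88%, and among those above it 9.08% and 32.0%. The mitochondrial genes were led by SPCC576.06c (1.25 ± 0.13), dar2 (1.09 ± 0.13), dia4 (0.60 ± 0.13) and ism1 (0.58 ± 0.10). The cytosolic genes with the largest differences were prs1 (-0.80 ± 0.10), krs1 (-0.67 ± 0.11), nrs1 (-0.44 ± 0.09) and drs1 (-0.43 ± 0.09). The call of dia4 (0.45) was lost without replicate 2 of treated WT, that of msk1 without this library (0.29) or replicate 1 of treated ubp8 (0.32), and that of SPAC24C9.09 without replicate 1 of treated WT (0.29) or of treated ubp8 (0.30). Of the 12 cytosolic calls 9 held with any library left out, gus1 being lost without each of the 4 libraries (-0.25 to -0.34), frs1 without replicate 2 of treated WT (-0.32) and rar1 without replicate 2 of either group (-0.25 each). Of the single genes 4 were lower, with mrs1 at -0.52 ± 0.10, and trl1 was lower too (-0.40 ± 0.09). With library totals, which moved the median of all genes to 0.19, 1 cytosolic gene was called higher and 9 lower, and 11 mitochondrial genes were higher. The mitochondrial count was 9 with a minimum mean of 50 counts or only the libraries compared. It was 8 with coding genes only and 7 with the replicate block. With DESeq2, its size factors or no filter it stayed at 6.

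**Figure D3:**
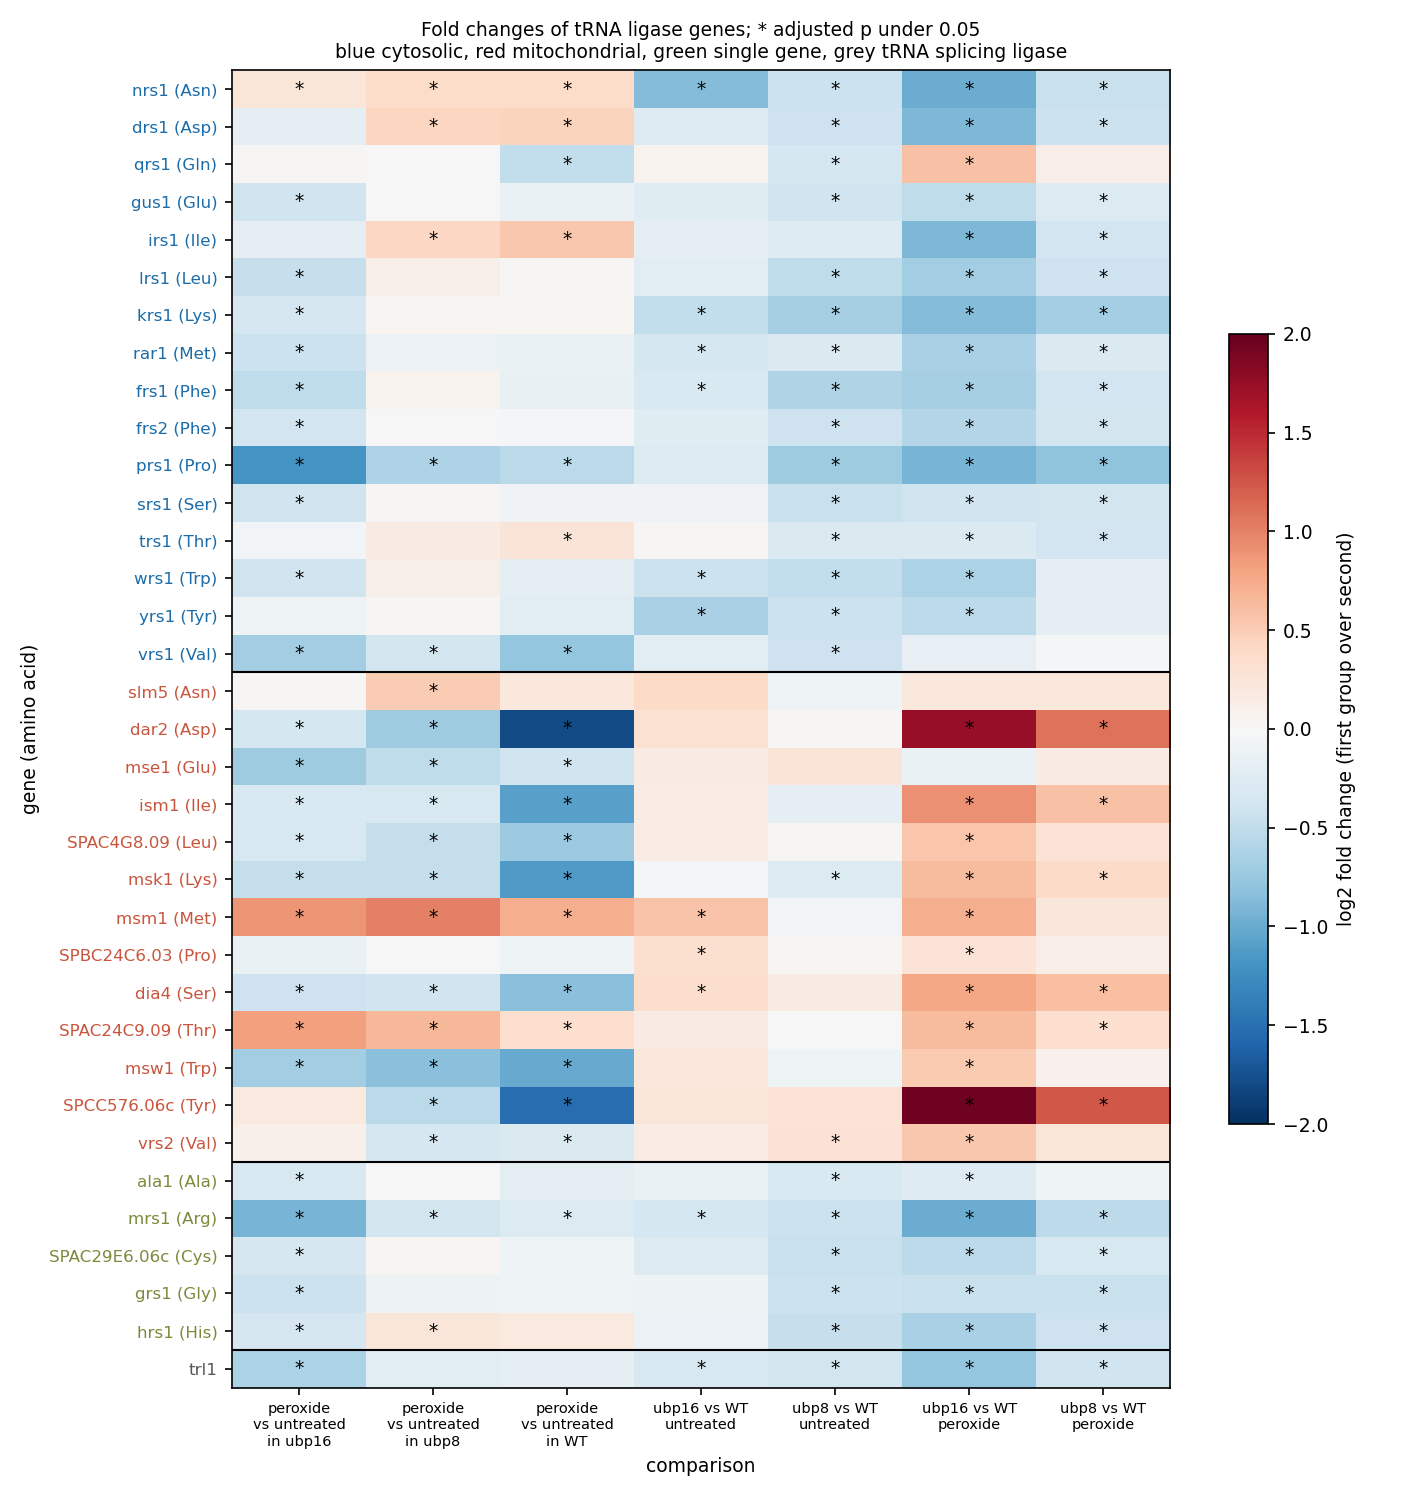
Log2 fold changes (colour, first group over second) of 35 tRNA ligase genes (rows, grouped by class) in 7 comparisons (columns), with asterisks at an adjusted p under 0.05. In the ubp16 against WT column under peroxide, 11 of 13 mitochondrial genes are called higher and 14 of 16 cytosolic genes lower.

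Within pairs, the mitochondrial difference lay above the cytosolic one in 13 of 13 amino acids in each comparison of a mutant with WT. The median gap was 0.47 in untreated ubp16 against WT, 0.43 in untreated ubp8, 1.21 in treated ubp16 and 0.72 in treated ubp8. By median, coding genes at or below the median level per length also lay above those over it. These medians were 0.33 against -0.13 in treated ubp16 and 0.15 against -0.14 in treated ubp8. In untreated cells they were 0.125 against -0.04 in ubp16 and -0.09 against -0.29 in ubp8. The part of expression level in the pair gaps was not tested. The comparisons with WT in a condition share the WT libraries, and each value stands for itself. The gap was widest for Asp (2.64) and Tyr (2.47) in treated ubp16 and narrowest for Glu (0.37) there. Synthetases also fall into class I and class II by the fold of their catalytic core. In treated ubp16 against WT, where 28.7% of all tested genes were called higher and 26.5% lower, 7 of 17 class I genes were higher and 8 lower, and 5 of 17 class II genes higher, a share near that of all genes, and 11 lower.

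The difference in response was tested directly. For ubp16 minus WT, 1 of 16 cytosolic genes was called higher and 4 lower (median -0.32), and 7 of 13 mitochondrial genes higher and 0 lower (median 0.41), against 13.0% higher and 14.4% lower of all tested genes (median -0.04). Of coding genes at or below the median level per length 26.0% were higher and 9.41% lower, and of those above it 10.1% and 25.1%. The largest positive values were SPCC576.06c (1.71 ± 0.17, adjusted p = 1.77e-06), dar2 (1.44 ± 0.17, adjusted p = 1.25e-05), ism1 (0.77 ± 0.13) and msk1 (0.66 ± 0.13). The negative ones among cytosolic genes were irs1 (-0.71 ± 0.14), prs1 (-0.66 ± 0.14), drs1 (-0.64 ± 0.13) and lrs1 (-0.48 ± 0.14). The lrs1 call was lost without replicate 1 of untreated WT (-0.40), replicate 2 of treated WT (-0.43) or replicate 2 of untreated (-0.41) or treated ubp16 (-0.45). Of the single genes mrs1 and hrs1 were lower, and so was trl1. The cytosolic genes called lower numbered 11 with coding genes alone or with library totals.

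For ubp8 minus WT, 1 of 16 cytosolic genes was called higher and 0 lower (median 0.07), and 4 of 13 mitochondrial genes higher and 0 lower (median 0.30), against 10.5% higher and 6.34% lower of all tested genes (median 0.05). Of coding genes at or below the median level per length 20.6% were higher and 3.03% lower. The mitochondrial genes were dar2 (1.07 ± 0.17), SPCC576.06c (0.97 ± 0.17), ism1 (0.76 ± 0.13) and msk1 (0.65 ± 0.13), and the cytosolic one was qrs1 (0.48 ± 0.11). The msk1 call was lost without replicate 2 of treated WT (0.49) or replicate 1 of treated ubp8 (0.52). That of qrs1 was lost without replicate 2 of untreated WT (0.39), either replicate of treated WT (0.35 and 0.42) or either replicate of treated ubp8 (0.35 and 0.43). No single gene was called.

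**Figure D4:**
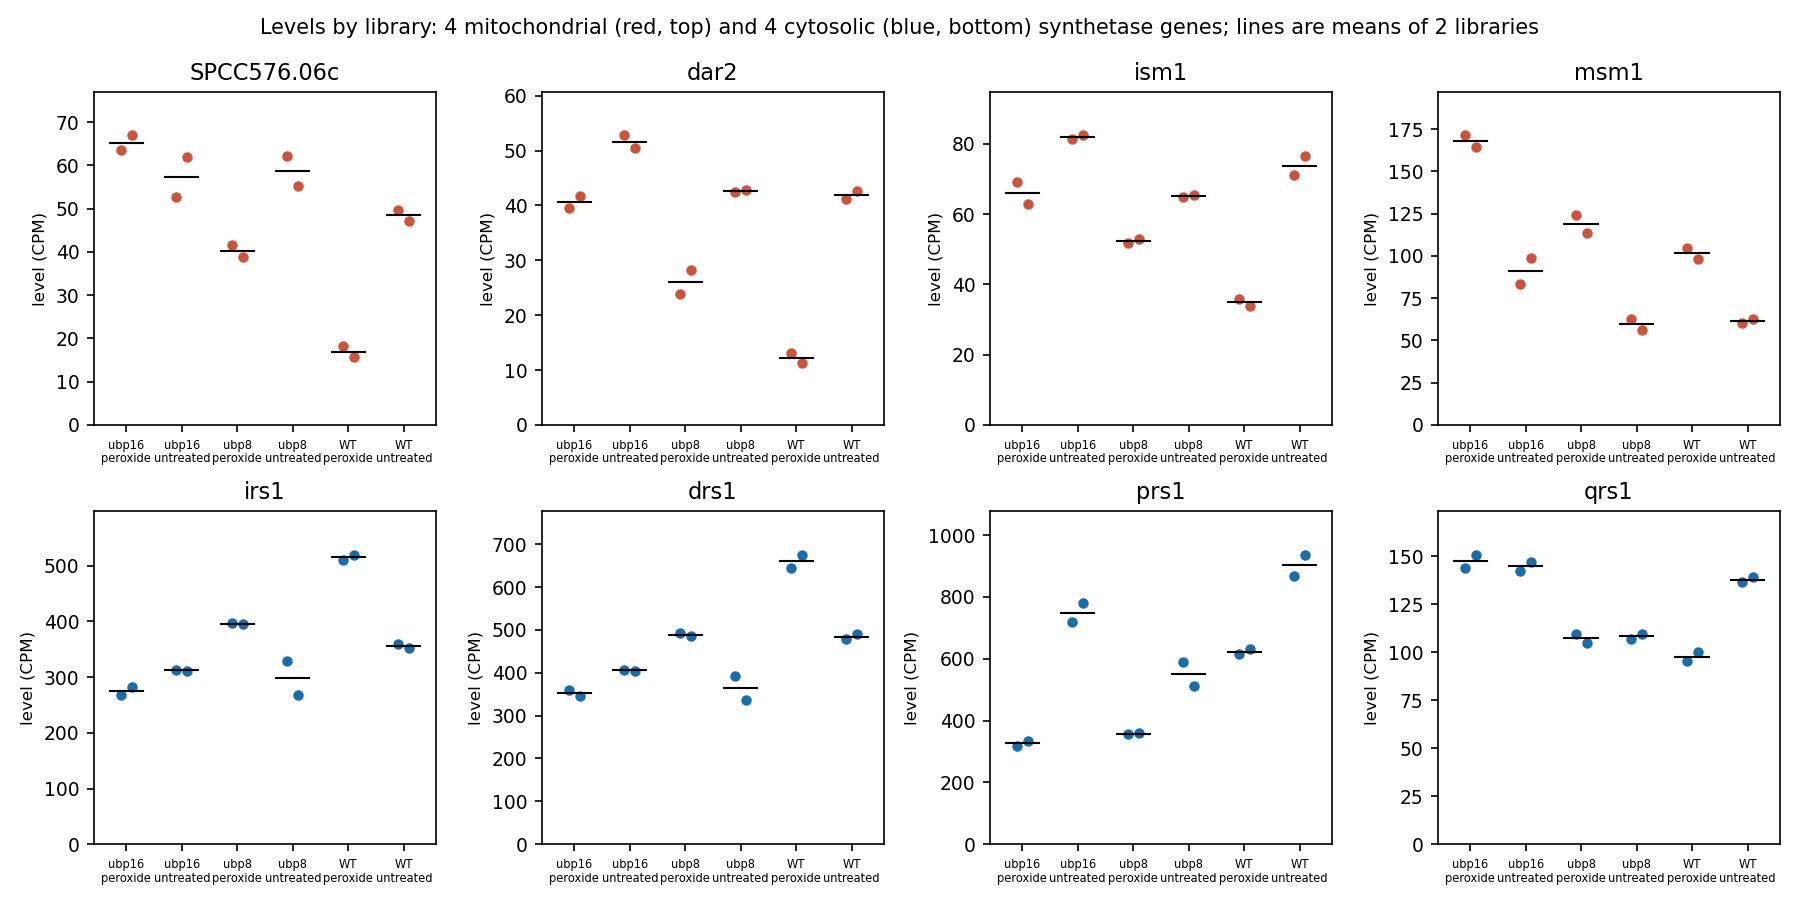
Levels (y axis, CPM) of 4 mitochondrial (red) and 4 cytosolic (blue) synthetase genes in each library (points) by group (x axis), with black lines at the mean of 2 libraries. SPCC576.06c lies at 18.2 and 15.7 CPM in WT treated libraries and at 63.6 and 67.0 CPM in ubp16 treated libraries.

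Transcripts from the opposite strand were compared where a single counted one faces a member over most of its exons. Not every such pair is given here. Some members without such a transcript are still largely overlapped. Opposite-strand exons together overlap 87.8% of dar2, 81.9% of dia4 and 80.7% of SPAC24C9.09, and these were not compared. The gene peg1 covers 74.5% of msw1 and averaged 34.6 CPM, near msw1 itself at 32.0 CPM. In treated ubp16 against WT peg1 changed by 1.40 ± 0.13 and msw1 by 0.52, and in the WT response peg1 changed by -1.31 ± 0.13 and msw1 by -1.01. These 2 moved the same way there, but in treated ubp8 against WT peg1 changed by 0.90 ± 0.13 while msw1 stood at 0.09, not called, and in untreated ubp8 against WT peg1 changed by 0.37 ± 0.12 while msw1 stood at -0.09, not called. The gene hnt3 covers 91.6% of msk1, and in the WT response it changed by 0.66 ± 0.16 while msk1 changed by -1.13. In untreated ubp16 against WT, however, hnt3 was higher by 0.71 ± 0.15 while msk1 stood at -0.02, not called. In the ubp16 response hnt3 stood at -0.20, not called, and msk1 changed by -0.47. SPNCRNA.838, opposite 79.2% of vrs2, changed by -1.77 ± 0.28 in treated ubp16 against WT, where vrs2 changed by 0.54, but in untreated ubp8 against WT both were higher, by 1.16 ± 0.23 and 0.28. Whether opposite-strand reads entered the counts of members was not tested.

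Other parts of the translation machinery, taken by product words, were counted in the same fits, against 28.7% higher and 26.5% lower of all tested genes in treated ubp16 against WT, 26.2% and 27.0% in the WT response and 25.2% each way in the ubp16 response. Among coding genes alone, 37.7% were higher and 27.6% lower in treated ubp16 against WT. These shares were 29.7% and 36.5% in the WT response and 31.1% and 32.7% in the ubp16 response. Of 76 mitochondrial ribosomal protein genes, 22 (28.9%, near the share of all genes and below that of coding genes) were higher in treated ubp16 against WT. In that comparison 5 (6.58%) were lower (median 0.10). In the WT response 10 rose and 24 fell (median -0.04). Of 36 translation initiation factor genes, 1 was higher and 29 lower in treated ubp16 against WT (median -0.53). Of 14 elongation factor genes, 2 were higher and 9 lower there (median -0.61). Neither list was split by compartment. The 2 higher elongation factor genes were mef1 (0.36 ± 0.11) and mef2 (0.50 ± 0.12). Not called were tuf1 (0.11), eft201 (-0.07) and tsf1 (-0.09). Of 32 tRNA modification enzyme genes, 2 rose and 21 fell in WT (median -0.47), and 1 rose and 26 fell in ubp16 (median -0.59). General amino acid control senses uncharged tRNA through the kinase Gcn2. The list under that name was made by symbol (gcn1, gcn2, gcn20, hri1, hri2 and fil1), and hri1 and hri2 encode kinases other than Gcn2. Of its 6 genes 3 rose and 2 fell in WT, and 1 was higher and 2 lower in treated ubp16 against WT. Among the 6 genes gcn2 rose in WT (1.11 ± 0.10) and was lower in treated ubp16 against WT (-1.10 ± 0.10). The factor gene fil1 fell in the responses of ubp16 (-0.58 ± 0.10) and WT (-0.60 ± 0.10), and was higher in treated ubp16 against WT (0.28 ± 0.10). The kinase gene hri2 rose in ubp16 (0.54 ± 0.10) and in WT (0.73 ± 0.10), and was lower in treated ubp16 against WT (-0.51 ± 0.10).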

How the data were processed

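PolyA RNA was sequenced with a stranded mRNA kit, per the labels' protocols, from 12 libraries grouped by their labels. The authors deposited raw counts per gene. Tools named without versions in the submitters' processing notes are STAR, HTSeq, DESeq2, FastQC and Trimmomatic. Genome build and strand setting were not given in the sources used here. Names, classes, lengths and sequences came from ASM294v3, to which 12602 genes matched by identifier, of which 5113 are coding.

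The tests used edgeR 4.0.16 (limma 3.58.1, R 4.3.3): filterByExpr (8166 genes with 99.95% of counts), TMM, a quasi-likelihood fit over all 12 libraries (1 mean per group, residual degrees of freedom 6), and Benjamini-Hochberg adjustment within each of 9 comparisons. SE are the log2 fold change over the square root of F. The fit was tested on simulated data. CPM use TMM-scaled totals. The floor of 3 counts covers counting error only. SE also include the spread between libraries of a group, estimated over all 12 libraries.

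Members and lists were chosen with earlier results of these data known. The planned class by product words could not be used, because the products name no compartment; the charge rule that replaced it uses annotation only. Named genes were, per comparison and class, up to 4 called members in each direction with the largest changes, pairs, class extremes and trl1. Members whose calls were lost, opposite-strand partners and level bands were added afterwards. Replicate numbers marked no shared culture in the labels. Alternatives were DESeq2 1.42.0, its size factors in edgeR, library totals, coding genes only, no filter, a minimum mean of 50 counts, a replicate block, the compared libraries alone and each library left out.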

Additional observations from a re-analysis of the deposited data

Results flagged for a closer look

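These members differed between a mutant and WT in the size of their peroxide response, by the edgeR test of the difference itself (adjusted p under 0.05 over all genes, 2 libraries in each group). For ubp16 minus WT the mitochondrial genes were SPCC576.06c (1.71), dar2 (1.44), ism1 (0.77), msk1 (0.66), SPAC24C9.09 (0.48), SPAC4G8.09 (0.41) and vrs2 (0.39). The cytosolic gene qrs1 was also above 0 (0.52), and irs1 (-0.71), prs1 (-0.66), drs1 (-0.64) and lrs1 (-0.48) were below. The single genes mrs1 (-0.64) and hrs1 (-0.53) and the splicing ligase gene trl1 (-0.45) were below 0 as well. For ubp8 minus WT the genes were dar2 (1.07), SPCC576.06c (0.97), ism1 (0.76), msk1 (0.65) and qrs1 (0.48).

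Both contrasts use the same WT libraries. In the ubp16 contrast the calls of vrs2 (adjusted p = 0.0478) and SPAC4G8.09 (adjusted p = 0.0475) were the weakest. Without a single library vrs2 ran from 0.31 to 0.40 and SPAC4G8.09 from 0.29 to 0.47 where their calls were lost. That of trl1 was lost without replicate 2 of untreated WT (-0.41), replicate 1 of treated WT (-0.43) or replicate 2 of treated ubp16 (-0.41).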

How the results depend on the processing

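Of 182 calls of single genes (members, msf1 and the deleted genes), 111 held under every alternative, and 406 of 464 counts of cytosolic or mitochondrial members stayed within 1.5 times. The counts for treated ubp16 against WT all did. Among the settings other than leaving out a library, scaling by library totals moved most counts, and it moved the median of all genes to -0.30, -0.38 and -0.23 in the ubp16, ubp8 and WT responses and to 0.28 in untreated ubp8 against WT.

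With library totals, cytosolic genes called higher and lower were 2 and 10 in the WT response, 0 and 12 in the ubp8 response, and 0 called higher in the ubp16 response; 4 were lower in untreated ubp8, 1 was higher in treated ubp8, 0 were higher in the ubp8 difference in response, and 11 were lower in the ubp16 difference. Mitochondrial genes called higher were then 1 in the WT response, 7 in untreated ubp8 (0 lower), 7 in untreated ubp16 and 11 in treated ubp8. Reversed in sign were hrs1 in the ubp8 response (-0.0725), nrs1 in the ubp16 response (-0.00234) and msk1 in untreated ubp8 (0.0147), none called there; the cause was not tested.

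In untreated ubp8 against WT, mitochondrial genes called higher were 3 with no filter, a minimum mean of 50 counts, coding genes only, the replicate block or only the libraries compared and 0 with DESeq2, and those called lower were 0 with no filter, a minimum mean of 50 counts, coding genes only or only the libraries compared. In untreated ubp16 against WT, cytosolic genes called lower were 12 with a minimum mean of 50 counts or coding genes only and 11 with DESeq2, and mitochondrial genes called higher were 1 with only the libraries compared or DESeq2. In the ubp16 response, cytosolic genes called higher were 0 with no filter or only the libraries compared. In the ubp8 difference in response they were 0 with no filter and 2 with the replicate block or DESeq2. In the ubp16 difference, cytosolic genes called lower were 10 with a minimum mean of 50 counts and 11 with coding genes only. The cause was not tested.

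With each library left out in turn, cytosolic genes called in the ubp8 response were 1 to 3 higher and 1 to 2 lower, and in the ubp16 response 0 to 1 higher. In untreated ubp8, 7 to 16 cytosolic genes were lower and 0 to 2 mitochondrial genes higher and 0 to 1 lower, and in untreated ubp16, 1 to 4 mitochondrial genes were higher. In the ubp8 difference 0 to 3 cytosolic genes were higher.

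Replicate numbers were also fitted as a block, although same-numbered libraries correlated only from -0.0073 to 0.309 in their deviations; no single-gene call was lost under the replicate block. Counts ran down to 115 in a library for a mitochondrial gene and to 907 for a cytosolic one, and each group had 2 libraries.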
